A study of Mus musculus with 12 samples.

Results

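Matrix metalloproteinases (MMPs) and the tissue inhibitors of metalloproteinases (TIMPs) were followed in bone marrow-derived macrophages (BMDMs). The set held 8 listed genes out of 48526 in the count table, namely 5 MMPs (Mmp9, Mmp12, Mmp13, Mmp14 and Mmp19) and 3 TIMPs (Timp1, Timp2 and Timp3). Members were found by gene symbol, mapped from the Ensembl identifiers through GENCODE, and all 8 passed the filter on low counts that left 15523 genes. Macrophages were grown from mouse marrow for 6 days in medium with 10% FBS and 20% L929-conditioned medium, which supplies the macrophage growth factor M-CSF. Marrow donors were male mice of 7 to 10 weeks, either WT or homozygous HSS9 KO. HSS9 is an enhancer upstream of Tnf, and the KO carries a germline deletion there that is not restricted to macrophages. KO mice were kept as homozygous breeding pairs. The labels call the WT mice littermates, whereas the methods describe purchased C57BL/6 mice, so that genotype and origin of the mice cannot be told apart here. Cells of each genotype were treated for 6 hr with PBS (UT) or with lipopolysaccharide (LPS), the outer membrane molecule of Gram-negative bacteria that macrophages sense through TLR4. Each of the 4 groups had 3 total RNA libraries, 12 in all. Each library of a group carried a different batch number, which equals its replicate number. Whether libraries with the same number were handled together is not given. The labels do not say whether libraries of a group came from separate mice, so the p-values measure the spread between these libraries, which may be technical.

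MMPs are zinc-dependent endopeptidases that cut collagens, elastin and other matrix proteins as well as cytokines and their receptors. Most are made as inactive proenzymes, and TIMPs shut the active enzymes down by binding in the catalytic cleft. Activated macrophages are a major source of both, and the balance between them is known to shape matrix turnover in inflamed tissue.

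RefSeq promoter windows of GRCm38.p6, covering 250 bases before to 50 bases after the annotated start, were matched for 6 of the 8 members. The entries of Mmp9 and Mmp19 were not matched. The windows of Mmp13, Mmp14 and Timp1 are printed because these members rose most with LPS, and that of the second annotated start of Mmp12 because it was the other window with a match to a searched motif. The Mmp13 window lies at chr9:7272264-7272563 (+ strand), the Mmp12 window at chr9:7347124-7347423 (+ strand), the Mmp14 window at chr14:54431348-54431647 (+ strand) and the Timp1 window at chrX:20869916-20870215 (+ strand). Each is written 5′ to 3′ in lower case, and capitals mark matches to the AP-1 motif TGANTCA or to the TATA box TATAAA.
Mmp13: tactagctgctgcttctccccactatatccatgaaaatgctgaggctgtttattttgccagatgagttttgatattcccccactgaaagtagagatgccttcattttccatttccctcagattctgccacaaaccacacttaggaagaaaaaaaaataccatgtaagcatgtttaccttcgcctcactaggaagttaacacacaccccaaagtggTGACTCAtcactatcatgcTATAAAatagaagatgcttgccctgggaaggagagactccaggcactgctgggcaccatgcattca
Mmp12: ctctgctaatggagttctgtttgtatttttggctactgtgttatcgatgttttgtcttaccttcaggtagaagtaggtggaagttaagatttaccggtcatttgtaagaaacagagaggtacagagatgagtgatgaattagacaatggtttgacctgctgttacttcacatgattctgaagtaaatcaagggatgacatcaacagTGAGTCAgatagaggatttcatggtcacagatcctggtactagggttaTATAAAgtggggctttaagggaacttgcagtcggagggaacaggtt
Mmp14: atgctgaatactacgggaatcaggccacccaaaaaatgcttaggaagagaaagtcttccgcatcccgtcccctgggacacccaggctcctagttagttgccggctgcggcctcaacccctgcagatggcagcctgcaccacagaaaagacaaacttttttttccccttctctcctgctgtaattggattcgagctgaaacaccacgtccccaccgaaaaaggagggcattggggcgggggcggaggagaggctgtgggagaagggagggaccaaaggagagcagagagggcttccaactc
Timp1: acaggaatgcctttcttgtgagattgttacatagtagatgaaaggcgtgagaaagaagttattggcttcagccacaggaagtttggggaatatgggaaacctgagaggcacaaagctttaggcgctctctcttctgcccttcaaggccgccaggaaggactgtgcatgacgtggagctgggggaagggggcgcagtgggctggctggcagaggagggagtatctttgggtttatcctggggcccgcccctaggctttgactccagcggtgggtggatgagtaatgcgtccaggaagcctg
AP-1 is the Fos and Jun dimer that binds many stimulus-induced promoters. Its motif, which reads the same on both strands, stood 35 bases before the Mmp13 start as TGACTCA (position -35) and at position -44 of the second Mmp12 start as TGAGTCA. The TATA box, searched on the forward strand only, began at position -16 in Mmp13 and at position 5 in that Mmp12 window. Of 32851 RefSeq promoters of 300 bases, 7.81% held TGANTCA and 8.32% held TATAAA. The kappaB consensus bound by NF-kappaB (both strands, in 4.51% of promoters) and the STAT motif TTCNNNGAA (both strands, in 8.3% of promoters) were found in none of the 7 windows of the 6 members. The windows of Mmp14, Timp1, Timp2, Timp3 and the first Mmp12 start held none of the 4 motifs, which says only that these letters were not in these bases. CG dinucleotides numbered 25 in the Timp2 window, 24 in that of Timp3, 8 in that of Timp1 and 1 in that of Mmp13.

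Library totals ranged from 26154533 to 36423921 counts. Values are given as CPM, in which counts are divided by the TMM-scaled library total, and differences as log2 fold changes with SE from the quasi-likelihood test of edgeR on all 15523 genes, with Benjamini-Hochberg adjusted p-values. Calls required both an adjusted p below 0.05 and a log2 fold change beyond 1 in size, and "rose" or "fell" is used where the adjusted p was below 0.05. TMM factors were 0.81 to 0.82 in LPS libraries, 1.16 to 1.18 in KO UT and 1.29 in WT UT. With library totals alone as the scale, the median of all genes moved to -0.62 (log2) for LPS in WT, -0.56 for LPS in KO, -0.15 for KO against WT in UT and 0.15 for the interaction, and with upper-quartile scaling to -0.14 and -0.24 for LPS in WT and KO. Tnf, the readout of the deletion, stood at 826, 905 and 938 CPM in WT LPS and at 422, 450 and 425 CPM in KO LPS, a decrease in KO (log2 fold change -1.04 ± 0.0604 (SE), adjusted p = 2.76e-10, n = 3 per group, edgeR). All 7 macrophage markers were detected in every group. Their sums did not overlap between genotypes of the same treatment, at 28700 to 29700 CPM in WT UT, 33100 to 34100 CPM in KO UT, 26400 to 27800 CPM in WT LPS and 28300 to 30100 CPM in KO LPS. None was called between genotypes, and at any fold 5 of the 7 were higher in KO UT and 1 lower, against 14.1% and 9.69% of all genes, with a median log2 fold change of 0.22. After LPS 4 were higher and none lower, against 7.78% and 6.54%, with a median of 0.13 (edgeR). Small structured RNAs such as snRNAs and snoRNAs took 3.00 to 3.25% of counts in WT UT, 6.64 to 7.98% in KO UT, 3.23 to 3.43% in KO LPS, and 4.04, 5.36 and 6.89% in the WT LPS libraries of batches 1, 2 and 3. In bulk RNA, fewer cells of a type and less RNA per cell cannot be told apart.

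At rest, the inhibitor Timp2 and the elastase Mmp12 were the leading members, and after LPS the collagenase Mmp13 took the first place and Timp1 the second. Levels of different genes are compared here as CPM per kb of exon. The order depends on the length used, since in CPM Mmp12 (247) stood above Timp2 (151) in WT UT. In WT UT, Timp2 stood at 38.8 ± 0.357 and Mmp12 at 34.1 ± 1.26 CPM per kb (SD, n = 3), followed by Mmp19 at 7.36, Mmp13 at 4.38, Timp1 at 1.3, Mmp14 at 0.488, Timp3 at 0.206 and Mmp9 at 0.198. Neighbours in this order did not overlap between libraries except Timp3 and Mmp9. In KO UT the order was Timp2 at 47.4, Mmp12 at 37.4, Mmp19 at 7.13, Timp1 at 3.12, Mmp13 at 2.78, Mmp14 at 0.409, Mmp9 at 0.304 and Timp3 at 0.276 CPM per kb, with overlap between Timp1 and Mmp13 and between Mmp9 and Timp3. After LPS the WT order was Mmp13 at 632, Timp1 at 188, Mmp14 at 73.1, Mmp12 at 55.5, Timp2 at 14.2, Mmp19 at 5.5, Mmp9 at 0.477 and Timp3 at 0.303 CPM per kb, the last pair overlapping. The KO LPS order was the same, with Mmp13 at 726, Timp1 at 190, Mmp14 at 85.4, Mmp12 at 57.4, Timp2 at 16.3, Mmp19 at 6.18, Mmp9 at 1.01 and Timp3 at 0.847 CPM per kb, and here no neighbours overlapped.

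**Figure D1:**
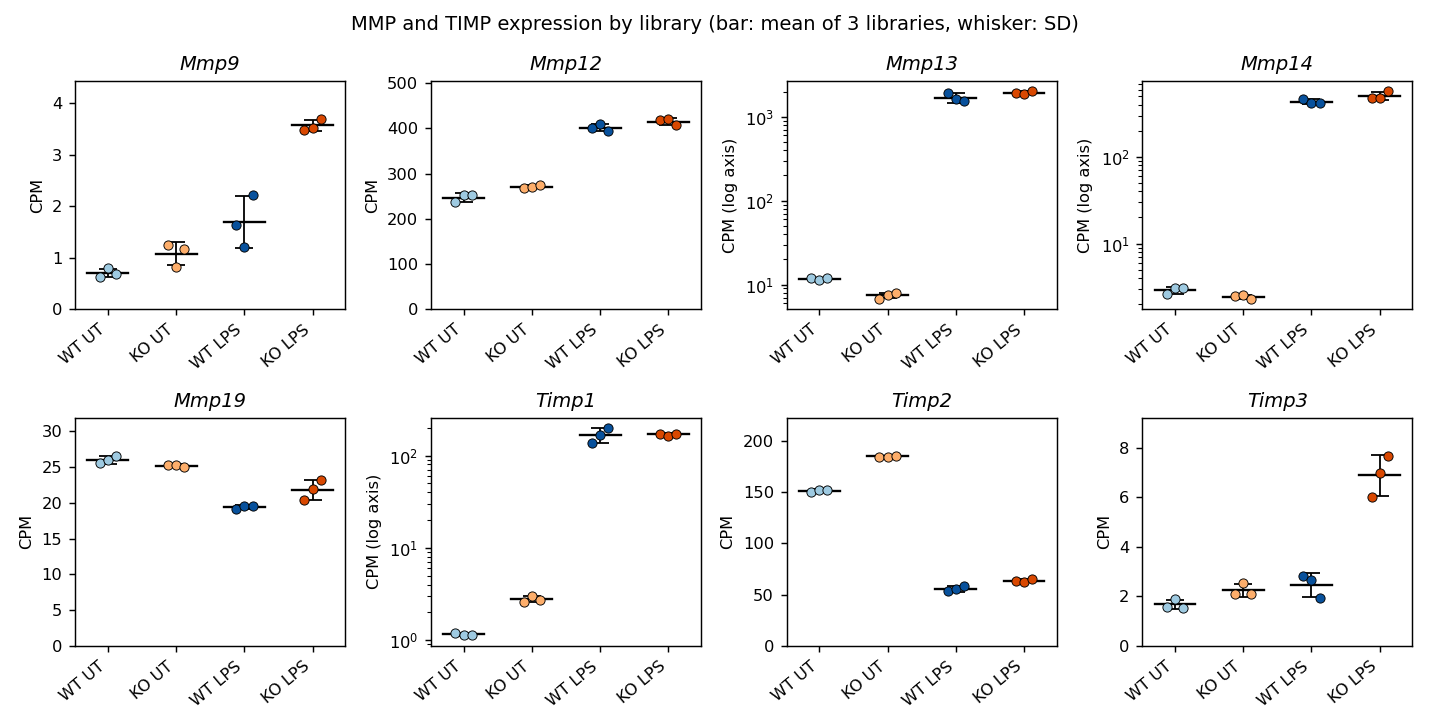
Expression of the 8 members in CPM (y axis, logarithmic for Mmp13, Mmp14 and Timp1) in the 3 libraries of each group (x axis), with the group mean as a bar and the SD as whiskers. Within a genotype, Mmp13, Mmp14 and Timp1 stand 61.0-fold to 261-fold higher with LPS, Timp2 stands lower, and Timp3 in KO LPS libraries (6.02 to 7.68 CPM) lies above all other libraries.

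After LPS, 2 of the 8 members were called between KO and WT, both higher in KO (Timp3 and Mmp9), against 1.25% of all genes tested called in either direction. At any fold with an adjusted p below 0.05, 4 members were higher (Timp3, Mmp9, Mmp14 and Timp2) and the other 4 did not pass the test, against 7.78% of all genes higher and 6.54% lower. In UT cells, 1 member was called (Timp1, higher in KO), against 1.82% of all genes, and at any fold 2 members were higher and 1 was lower, against 14.1% and 9.69% of all genes. LPS called 4 members higher and 1 lower in WT cells, against 19.1% and 18.7% of all genes, and 5 higher and 1 lower in KO cells, against 17.7% and 19.3%. At any fold all 8 members passed with LPS in each genotype, 6 higher and 2 lower, where the shares of all genes higher and lower were 38.0% and 35.3% in WT and 35.1% and 37.7% in KO. The difference between genotypes in the LPS response (the interaction) was called for 2 members, against 2.16% of all genes. At any fold 3 members had a larger LPS log2 fold change in KO and 1 a smaller one, against 7.32% and 9.5% of all genes. The median log2 fold change of the 8 members was 0.2 for KO against WT after LPS and 0.21 in UT, beside -0.01 and 0.0 over all genes tested.

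Mmp13 encodes collagenase-3, which cuts fibrillar collagen (chr9:7272514-7283331, GRCm38). In UT cells it was measured at 11.9, 11.4 and 11.9 CPM in WT and at 6.77, 7.58 and 7.92 CPM in KO. After LPS it reached 1926, 1616 and 1528 CPM in WT and 1927, 1882 and 2010 CPM in KO. Every KO UT library lay below every WT UT library, whereas the LPS groups overlapped. Mmp13 was lower in KO UT (log2 fold change -0.66 ± 0.0866 (SE), adjusted p = 9.61e-06, n = 3 per group, edgeR), with KO to WT ratios of 0.57, 0.666 and 0.666 in the 3 batches. It rose 144-fold with LPS in WT (log2 fold change 7.17 ± 0.0905) and 261-fold in KO (8.03 ± 0.0954), and the difference of 0.85 on the log2 scale passed the test (adjusted p = 2.75e-05, edgeR, 0.81 to 0.98 within batches). After LPS itself the KO to WT difference was 0.20 ± 0.0674 (adjusted p = 0.0528, edgeR). That difference lay near the threshold and moved across it with the settings. It passed with DESeq2 (0.21, adjusted p = 0.0347), with RLE scaling (0.21, adjusted p = 0.0449), with no filter on low counts (0.23, adjusted p = 0.00198) and without the WT LPS library of batch 1 (0.30, adjusted p = 7.89e-05). It did not pass without any 1 of the other 5 LPS libraries, at 0.13 (adjusted p = 0.194) without the WT LPS library of batch 3 and 0.17 to 0.22 without the others, nor with batch as a block (adjusted p = 0.0819) or in a fit of the 2 LPS groups alone (adjusted p = 0.0975).

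The share of small structured RNAs moved with the UT difference. It did not overlap between WT UT and KO UT, and within WT LPS the library with the lowest share had the highest Mmp13. In a fit with the share as covariate the UT difference of Mmp13 was -0.15 (adjusted p = 0.512), the interaction 0.11 (adjusted p = 0.827) and the LPS difference -0.041 (adjusted p = 0.754, edgeR). The share and the genotype cannot be told apart in UT cells.

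Mmp14 encodes MT1-MMP, a membrane-anchored collagenase that also activates the proenzyme of Mmp2 (chr14:54431612-54445364). Its UT libraries held 2.60, 3.04 and 3.08 CPM in WT and 2.49, 2.53 and 2.30 CPM in KO. With LPS it was found at 469, 420 and 418 CPM in WT and 472, 484 and 570 CPM in KO. The KO LPS libraries lay above the WT LPS libraries, the closest pair being 472 and 469 CPM. LPS raised Mmp14 149-fold in WT (log2 fold change 7.22 ± 0.0983) and 209-fold in KO (7.71 ± 0.103). The excess in KO after LPS was 0.22 ± 0.0690 (adjusted p = 0.0342, edgeR), and it was not past the threshold with batch as a block (0.22, adjusted p = 0.0645) or without the KO LPS library of batch 3 (0.14, adjusted p = 0.213), the WT LPS library of batch 2 (0.20, adjusted p = 0.123) or that of batch 3 (0.20, adjusted p = 0.0887). It was 0.22 (adjusted p = 0.0745) in a fit of the 2 LPS groups alone and 0.10 (adjusted p = 0.539) with the small RNA share as covariate. In UT the KO libraries lay below the WT libraries, but the difference of -0.26 ± 0.125 did not pass the test (adjusted p = 0.147, edgeR). It was -0.33 with DESeq2 (adjusted p = 0.0492), -0.41 with library totals alone (adjusted p = 0.0132) and -0.004 with the small RNA share as covariate (adjusted p = 0.997). The interaction was 0.48 (adjusted p = 0.0230, edgeR), with 0.07, 0.48 and 0.87 in the 3 batches. It missed the threshold without the KO UT library of batch 3 (0.44), the WT LPS library of batch 2 (0.46) or the WT UT libraries of batch 2 (0.45) or 3 (0.44), and with the small RNA share as covariate it was 0.11 (adjusted p = 0.907).

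Mmp12 encodes macrophage elastase (chr9:7344381-7369499), and it was the MMP with the highest level per kb in UT cells. Its values were 236, 253 and 252 CPM in WT UT, 267, 270 and 275 CPM in KO UT, 401, 409 and 394 CPM in WT LPS and 418, 421 and 407 CPM in KO LPS. The UT genotypes did not overlap, and the LPS genotypes did. Mmp12 rose 1.63-fold with LPS in WT (log2 fold change 0.70 ± 0.0498, adjusted p = 3.13e-11) and 1.53-fold in KO (0.62 ± 0.0497, adjusted p = 2.85e-10, edgeR). These rises rested on the scale, since with library totals alone they were 0.037 in WT and 0.11 in KO and neither passed the test. The difference between KO and WT in UT was 0.13 ± 0.0496 (adjusted p = 0.0566). It passed in a fit of the 2 UT groups alone (adjusted p = 0.0161), with a mean CPM of at least 1 (0.14, adjusted p = 0.0368) and with protein-coding genes only (0.14, adjusted p = 0.0282), but was 0.06 with RLE scaling (adjusted p = 0.4), 0.059 with DESeq2 (adjusted p = 0.298) and -0.018 with library totals alone (adjusted p = 0.819). After LPS KO and WT differed by 0.05 ± 0.0496 after LPS (95% interval -0.06 to 0.15, adjusted p = 0.574, edgeR).

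Mmp19 encodes a secreted MMP known as an autoantigen in rheumatoid synovium (chr10:128790910-128800824). Its libraries held 25.5, 25.9 and 26.6 CPM in WT UT, 25.3, 25.3 and 25 CPM in KO UT, 19.1, 19.6 and 19.6 CPM in WT LPS and 20.4, 21.9 and 23.2 CPM in KO LPS. It was the one MMP of the set that fell with LPS, by 0.42 on the log2 scale in WT (SE 0.0681, adjusted p = 1.05e-05) and by 0.21 in KO (SE 0.0674, adjusted p = 0.00942, edgeR). Without the KO LPS library of batch 1 the decrease in KO was 0.16 (log2 fold change -0.16, adjusted p = 0.0616), and with the small RNA share as covariate it was -0.17 (adjusted p = 0.448). With library totals alone the log2 fold change was -1.09 in WT, past the fold limit of a call, and -0.71 in KO. The KO LPS libraries lay above the WT LPS libraries, but the difference of 0.17 did not pass the test (adjusted p = 0.117), nor did that in UT (-0.05, adjusted p = 0.673, or -0.2 with library totals alone, adjusted p = 0.0201). Tmem198b, on the opposite strand, shares 789 exon bases with Mmp19 and was measured at 5.67 to 10.6 CPM on average. Whether counting used the strand is not given in the sources used here, so reads of these genes may not be fully separated.

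Mmp9 encodes gelatinase B, which cuts denatured collagen and basement membrane (chr2:164940780-164955850). It was scarce, with 27 to 101 counts per library. Its libraries held 0.632, 0.794 and 0.68 CPM in WT UT, 1.24, 0.823 and 1.16 CPM in KO UT, 1.64, 1.21 and 2.21 CPM in WT LPS and 3.49, 3.53 and 3.70 CPM in KO LPS. All KO LPS libraries lay above all others, and KO UT overlapped WT LPS. After LPS Mmp9 was 2.12-fold higher in KO (log2 fold change 1.08 ± 0.239, adjusted p = 0.00436, n = 3 per group, edgeR), with ratios of 2.13, 2.91 and 1.67 in the 3 batches. Without the WT LPS library of batch 2 it was 0.90, below the fold limit of a call. In UT the difference was 0.62 ± 0.266 (adjusted p = 0.103). LPS raised Mmp9 2.39-fold in WT (1.26 ± 0.266, adjusted p = 2.41e-04) and 3.3-fold in KO (1.72 ± 0.240, adjusted p = 1.41e-06, edgeR), and these responses were not shown to differ (interaction 0.47, 95% interval -0.28 to 1.22, adjusted p = 0.426). The size of the rise in WT depended on the scale. With library totals alone it was 0.59 (adjusted p = 0.0478) and with the small RNA share as covariate 0.99 (adjusted p = 0.046), both under the fold limit of a call, whereas in KO the 2 values were 1.22 and 2.18. Neutrophils store Mmp9. The summed neutrophil markers stood at 50.5 to 79.6 CPM in WT LPS and 67.3 to 76.8 CPM in KO LPS. After LPS S100a9 alone of the 7 tested markers passed the adjusted p (0.76 higher in KO on the log2 scale), against 7.78% of all genes higher and 6.54% lower. Ly6g was at 0 in every library. Osteoclasts, which share a lineage with macrophages, also make Mmp9. The 8 osteoclast markers summed to 90.3 to 97.9 CPM in WT LPS and to 108 to 112 CPM in KO LPS, without overlap, and to 133 to 134 CPM in WT UT and 162 to 167 CPM in KO UT. Of the 7 tested, none was called between genotypes after LPS, against 1.25% of all genes. At any fold 3 were higher in KO, namely Acp5 (0.47, adjusted p = 4.65e-04), Ctsk (0.26, adjusted p = 0.0158) and Itgb3 (0.40, adjusted p = 0.0396), and Atp6v0d2 was lower (-0.56, adjusted p = 3.35e-04, edgeR). The shares of all genes were 7.78% higher and 6.54% lower. The median log2 fold change of the 7 was -0.17, beside -0.01 over all genes. The calcitonin receptor gene Calcr had at most 18 counts and Oscar at most 4 counts in any library. The part of neutrophils and osteoclasts in the Mmp9 difference was not tested.

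**Figure D2:**
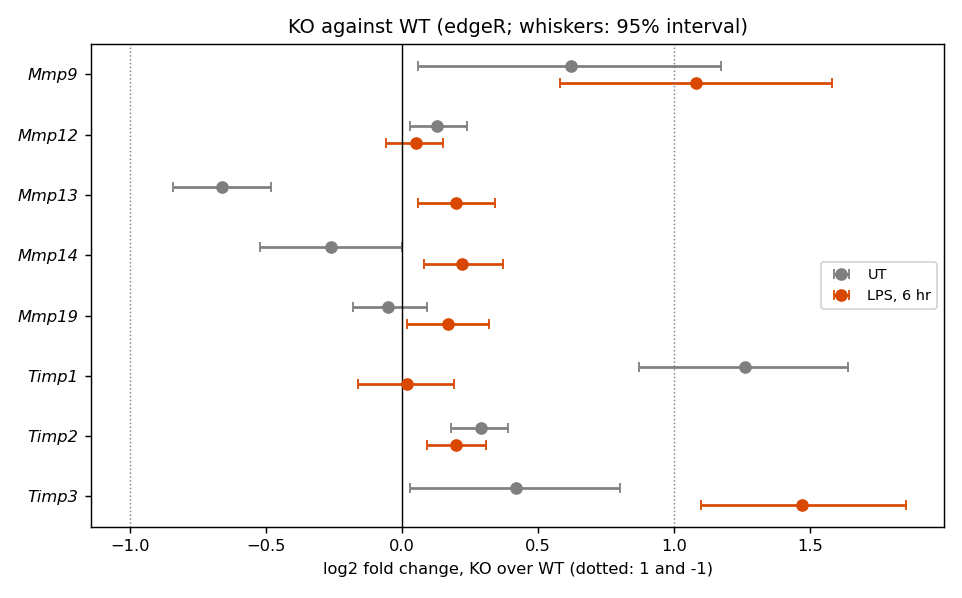
Log2 fold change of KO over WT (x axis) for each member (y axis) in UT cells (grey) and after LPS (orange), with 95% intervals from edgeR and dotted lines at 1 and -1. Timp1 lies at 1.26 in UT and 0.02 after LPS, and Timp3 at 0.42 in UT and 1.47 after LPS.

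Timp1 encodes a secreted inhibitor of most MMPs that is known to be induced in inflammation (chrX:20870166-20874735, within the Syn1 gene on the opposite strand, with 0 shared exon bases). It was found at 1.19, 1.15 and 1.13 CPM in WT UT and at 2.60, 3.00 and 2.71 CPM in KO UT. After LPS it stood at 136, 168 and 198 CPM in WT and at 172, 164 and 171 CPM in KO. The UT genotypes did not overlap (51 to 53 counts against 90 to 107), and the KO LPS libraries fell inside the WT LPS range. In UT cells Timp1 was 2.39-fold higher in KO (log2 fold change 1.26 ± 0.185, adjusted p = 3.12e-05, edgeR), with ratios of 2.18, 2.61 and 2.40 in the 3 batches. LPS raised it 144-fold in WT (7.17 ± 0.132) and 61.0-fold in KO (5.93 ± 0.120), and the response was smaller in KO by 1.24 on the log2 scale (log2 interaction -1.24 ± 0.204, adjusted p = 2.63e-04, edgeR). After LPS the genotypes differed by 0.02 (95% interval -0.16 to 0.19, adjusted p = 0.926).

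Between the UT groups, Timp1 and the share of small structured RNAs were both higher in KO. Within KO UT the library with the highest share, 7.98%, had the lowest Timp1, 2.60 CPM. Within WT LPS the library with the highest share, 6.89%, had the highest Timp1, 198 CPM. With that share as covariate the UT difference was 0.48 (adjusted p = 0.104), the interaction -0.078 (adjusted p = 0.945) and the difference after LPS 0.40 (adjusted p = 3.34e-04, edgeR). Summed neutrophil markers were also higher in KO UT, at 20.5 to 22.2 CPM in WT UT and 43.1 to 48.8 CPM in KO UT, and 5 of the 7 tested markers were called higher in KO UT, against 1.82% of all genes called. Of B cell markers, Ighm, the immunoglobulin heavy chain mu gene, stood at 18.4 to 20.5 CPM in WT UT and 37.1 to 38.5 CPM in KO UT (0.98 higher in KO on the log2 scale, adjusted p = 1.65e-08, edgeR), while Cd79a and Ms4a1 had at most 5 counts in any library. The 4 T cell markers summed to at most 0.173 CPM in any library. The part of these cells in the Timp1 difference was not tested.

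Timp2 encodes the inhibitor that also takes part in the activation of proMmp2 by MT1-MMP (chr11:118301069-118355740, - strand). It was measured at 150, 152 and 152 CPM in WT UT, 184, 184 and 185 CPM in KO UT, 53.1, 55 and 58.1 CPM in WT LPS and 63.4, 62.7 and 64.8 CPM in KO LPS. No group overlapped another. It was the one member called lower with LPS, falling 2.73-fold in WT (log2 fold change -1.45 ± 0.0533, adjusted p = 2.61e-16) and 2.9-fold in KO (-1.54 ± 0.0528, adjusted p = 7.80e-17, edgeR). KO cells held more Timp2 in UT (0.29 ± 0.0506, adjusted p = 2.10e-04) and after LPS (0.20 ± 0.0540, adjusted p = 0.0163, edgeR), and the LPS responses were not shown to differ (-0.09, 95% interval -0.24 to 0.07, adjusted p = 0.479). Batch ratios of KO to WT were 1.23, 1.21 and 1.22 in UT and 1.2, 1.14 and 1.12 after LPS. The sums of the 7 macrophage markers were also higher in KO, as given above. Their log2 fold changes between KO and WT ranged from -0.13 (Csf1r) to 0.46 (Cd14) in UT and from -0.07 (Cd14) to 0.36 (Itgam) after LPS, and their part in the Timp2 difference was not tested. The UT difference was 0.15 (adjusted p = 0.542) with the small RNA share as covariate, and the difference after LPS missed the threshold without the KO LPS library of batch 3 (0.19, adjusted p = 0.0588) or the WT LPS library of batch 2 (0.20, adjusted p = 0.0505), and in a fit of the 2 LPS groups alone (0.19, adjusted p = 0.0675).

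Timp3 encodes the inhibitor that is bound to the matrix and that also blocks Adam17, the sheddase that frees TNF from the cell surface (chr10:86300372-86349506). It was scarce, with 41 to 210 counts per library. Its libraries held 1.59, 1.90 and 1.55 CPM in WT UT, 2.08, 2.56 and 2.1 CPM in KO UT, 2.83, 2.65 and 1.93 CPM in WT LPS and 6.02, 6.98 and 7.68 CPM in KO LPS. Every KO LPS library held more Timp3 than any other library, and KO UT overlapped WT LPS. The KO excess after LPS was 2.77-fold (log2 fold change 1.47 ± 0.180, adjusted p = 1.30e-05, n = 3 per group, edgeR), with ratios of 2.12, 2.64 and 3.98 in the 3 batches. In UT the difference was 0.42 ± 0.186 (adjusted p = 0.118). LPS raised Timp3 3.07-fold in KO (1.62 ± 0.173, adjusted p = 2.89e-08) and 1.48-fold in WT (0.56 ± 0.194, adjusted p = 0.0129, edgeR). The rise in WT depended on the scale, on 1 library and on the groups fitted, since it was -0.099 with library totals alone, 0.38 (adjusted p = 0.0801) with upper-quartile scaling and 0.45 (adjusted p = 0.0794) without the WT LPS library of batch 1, and 0.51 (adjusted p = 0.0515) in a fit of the 2 WT groups alone. The interaction was 1.05 ± 0.260 (adjusted p = 0.00731, edgeR), and it kept its adjusted p below 0.05 but fell under the fold limit without the KO LPS library of batch 3 (0.97), the WT LPS library of batch 3 (0.91) or the WT UT library of batch 2 (0.96). With the small RNA share as covariate the KO excess after LPS was 1.2 (adjusted p = 0.0053), the LPS response in KO 1.06 (adjusted p = 0.0713) and the interaction 0.20 (adjusted p = 0.954). Syn3 overlaps Timp3 on the opposite strand over 1733 exon bases but had at most 5 counts in any library.

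Stromal cells express Timp3. After LPS 4 of the 6 tested stromal markers were called higher in KO, against 1.25% of all genes called. All 8 stromal markers summed to 26.9 to 28.9 CPM in KO LPS and to 22.0 to 24.1 CPM in WT LPS. Most of these sums was Pdgfrb, which itself rose with LPS and did not pass the test between genotypes after LPS (-0.01, adjusted p = 0.968, edgeR). Without Pdgfrb, left out after its values were seen, the 7 other stromal markers summed to 7.13 to 8.49 CPM in KO LPS and to 2.12 to 4.32 CPM in WT LPS. The UT sums overlapped, at 3.77 to 4.49 CPM in WT and 4.11 to 5.67 CPM in KO, and 2 of the 6 tested markers, Dcn and Pdgfra, were called higher in KO UT, against 1.82% of all genes called. With LPS in WT, Pdgfrb rose (4.36, adjusted p = 6.91e-18), and Col1a1 (-1.32, adjusted p = 0.00577) and Col1a2 (-0.87, adjusted p = 0.00713, edgeR) fell. Col3a1 (-0.44), Dcn (1.0) and Pdgfra (0.49) did not pass the test. Lum had at most 6 counts and Thy1 at most 1 count in any library. Their part in the Timp3 difference was not tested.

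**Figure D3:**
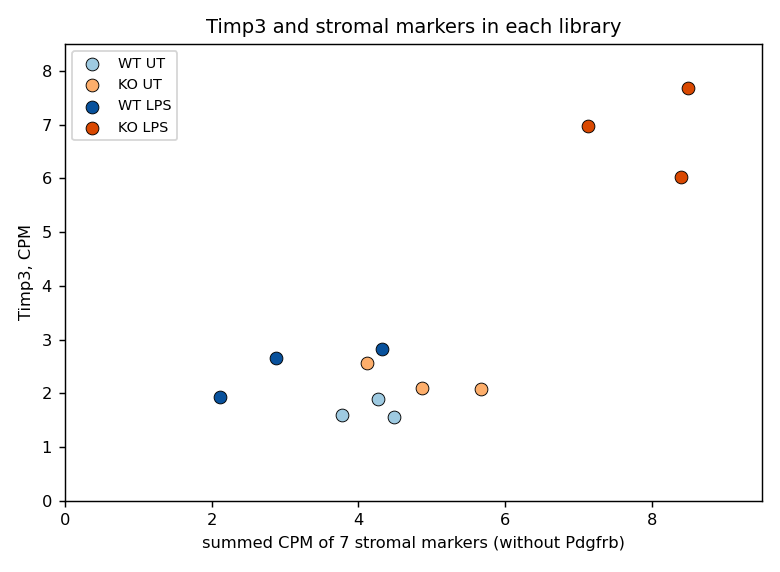
Timp3 in CPM (y axis) against the summed CPM of 7 stromal markers (x axis) in each of the 12 libraries, coloured by group. Pdgfrb was left out of the sum after its values were seen. With it the sums were 26.9 to 28.9 CPM in KO LPS and 22.0 to 24.1 CPM in WT LPS. The 3 KO LPS libraries lie apart from the rest on both axes, with Timp3 at 6.02 to 7.68 CPM and marker sums of 7.13 to 8.49 CPM.

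Over the 8 members, Timp2 and Mmp12 made up most of the summed TIMP and MMP levels in UT, and Timp1 and Mmp13 after LPS, in both genotypes. Timp2 made up 96.2% of summed TIMP levels per kb in WT UT and 93.3% in KO UT, whereas Timp1 made up 92.7% in WT LPS and 91.7% in KO LPS. Mmp12 made up 73.3% of the summed levels of the 5 MMPs in WT UT and 77.9% in KO UT, and Mmp13 82.4% in WT LPS and 82.9% in KO LPS. The ratio of the MMP sum to the TIMP sum was 1.15 ± 0.0289 in WT UT, 0.947 ± 0.00987 in KO UT, 3.9 ± 1.12 in WT LPS and 4.22 ± 0.12 in KO LPS (SD, n = 3). The ratio was above the UT values in every LPS library, and the KO LPS values lay inside the WT LPS range of 2.95 to 5.14. Over all 23 MMP and 4 TIMP genes of the table that were looked up, Mmp12 made up 48.5% of MMP levels in WT UT and 55.2% in KO UT, with Mmp8 at 28.7% and 21.8%, and Mmp13 made up 80.2% in WT LPS and 81.0% in KO LPS. The ratio over these genes was 1.74 ± 0.0427 in WT UT, 1.34 ± 0.0318 in KO UT, 4.01 ± 1.14 in WT LPS and 4.32 ± 0.117 in KO LPS. These are ratios of RNA levels and were not tested. They depend on the summed exon lengths, such as 7237 bases for Mmp12 and 3896 for Timp2.

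**Figure D4:**
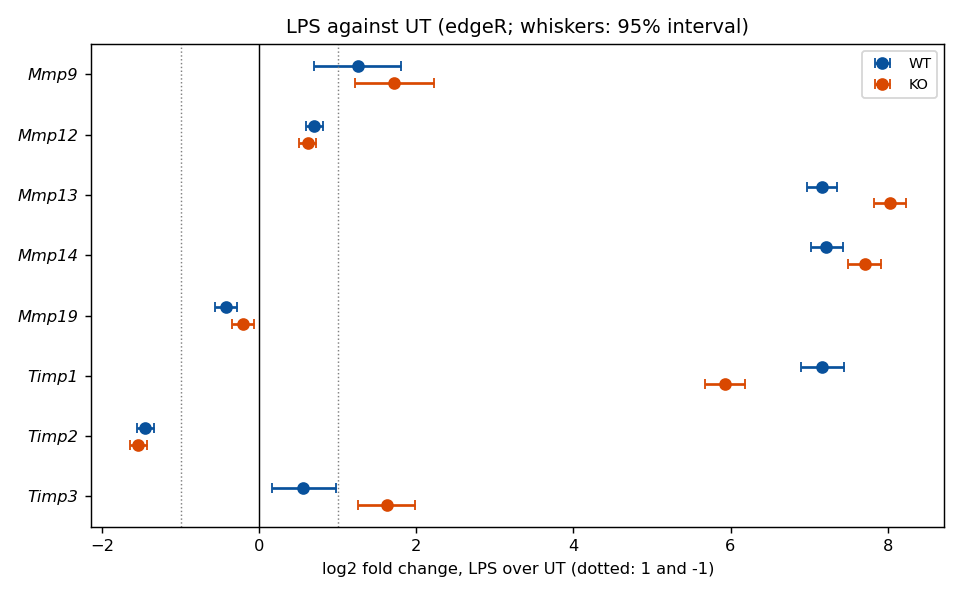
Log2 fold change of LPS over UT (x axis) for each member (y axis) in WT (blue) and KO (orange) cells, with 95% intervals from edgeR and dotted lines at 1 and -1. Mmp13 lies at 7.17 in WT and 8.03 in KO, Timp1 at 7.17 and 5.93, and Timp2 at -1.45 and -1.54.

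Mmp13 and Mmp12 are neighbours in a cluster of 10 MMP genes on chromosome 9, which spans 427.1 kb, and the start of Mmp12 lies 61.0 kb past the end of Mmp13. Of these genes 6 passed the count filter. In WT, Mmp13 rose 144-fold with LPS and Mmp12 next to it 1.63-fold, and Mmp8, the neutrophil collagenase, fell from a mean of 49.0 to 34.4 CPM in WT (log2 fold change -0.51 ± 0.0652, adjusted p = 4.07e-07, edgeR). Mmp27 fell from 5.84 to 3.73 CPM (-0.65 ± 0.133, adjusted p = 1.75e-04). Mmp3 and Mmp10, the stromelysins, were called higher with LPS but held at most 41 counts in any library. The log2 fold changes of Mmp3 were 4.57 in WT and 3.13 in KO, and those of Mmp10 were 1.81 and 3.10.

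**Figure D5:**
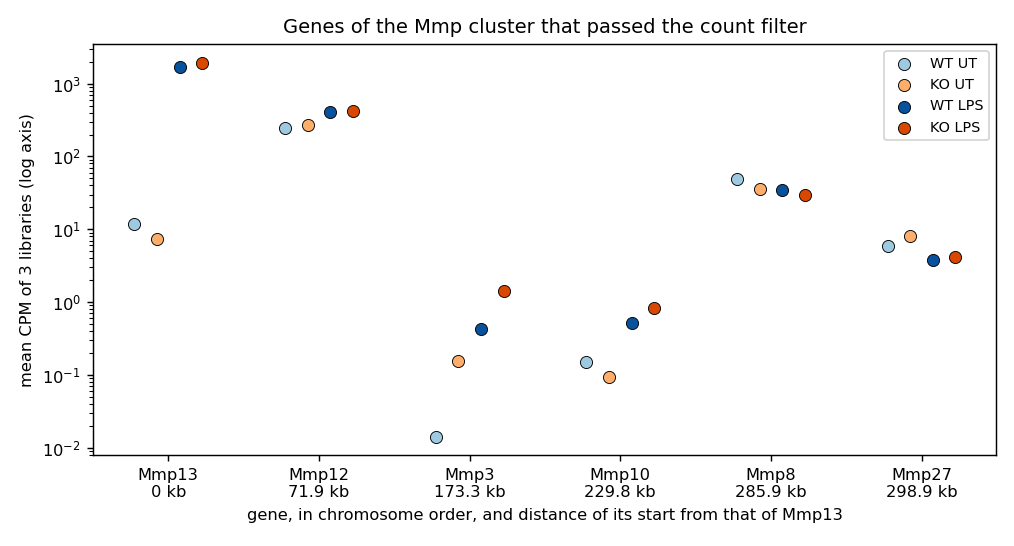
Mean CPM of 3 libraries (y axis, logarithmic) for the 6 genes of the chromosome 9 cluster that passed the count filter, in chromosome order with the distance of each start from that of Mmp13 (x axis), coloured by group. Mmp13 goes from 11.7 to 1690 CPM with LPS in WT, and Mmp8 from 49.0 to 34.4 CPM.

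Of 19 further MMP and TIMP genes, 8 passed the filter, 1 was at 0 in every library and the others had at most 27 counts. LPS called 5 of the 8 higher in WT and 4 in KO, against 19.1% and 17.7% of all genes. At any fold 2 were lower in each, Mmp8 and Mmp27, against 35.3% and 37.7% of all genes. Mmp25, a membrane-anchored MMP known from leukocytes, rose from 0.910 ± 0.121 to 14.9 ± 1.81 CPM in WT (log2 fold change 4.03 ± 0.174, adjusted p = 4.97e-15) and from 0.751 ± 0.214 to 17.5 ± 2.82 CPM in KO (4.56 ± 0.185, adjusted p = 1.55e-15, edgeR). Mmp28 rose in WT (1.13 ± 0.241) and KO (1.67 ± 0.244). Between genotypes, Mmp3 was called higher in KO after LPS. The WT LPS libraries had 15, 9 and 7 counts of it and the KO LPS libraries 38, 41 and 33 (1.67 ± 0.444, adjusted p = 0.0152, edgeR). In UT it was called too, at 0, 0 and 2 counts in WT libraries against 3, 6 and 8 in KO. Mmp2 (gelatinase A), the target of Mmp14, was called higher in KO UT (1.37 ± 0.402, adjusted p = 0.0158) at 18 to 33 counts against 12 to 14. At any fold Mmp27 was higher in KO UT (0.46 ± 0.117, adjusted p = 0.00545) and Mmp8 lower (-0.45 ± 0.0635, adjusted p = 1.88e-05, edgeR). Mmp23 passed the filter at 5 to 20 counts per library and was not called, while Mmp10 was called with LPS in both genotypes at no more than 25 counts. Mmp2 and Mmp3 are typical of stromal cells. Of the 6 tested stromal markers, 4 were called higher in KO after LPS, with sums that did not overlap, and 2 in UT, where the sums overlapped. The part of those cells was not tested.

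Among 28 proteins that activate, clear or inhibit MMPs or shed cell surface proteins, 24 genes were tested. LPS called 7 higher and 1 lower in WT, against 19.1% and 18.7% of all genes, and 8 higher and 1 lower in KO, against 17.7% and 19.3%. Those with the largest LPS response were Serpinb2, an inhibitor of plasminogen activators, at 0.300 ± 0.166 CPM in WT UT and 268 ± 22.7 CPM in WT LPS, and Lcn2, which binds Mmp9, at 0.533 ± 0.0354 and 181 ± 12.5 CPM. The aggrecanase Adamts4 went from at most 1 count per UT library to 75 to 85 counts in WT LPS and 35 to 49 counts in KO LPS, and Plat, the tissue plasminogen activator, from 0.212 ± 0.112 to 13.0 ± 2.08 CPM in WT. Between genotypes Adamts4 was the 1 gene of this list called, lower in KO after LPS (log2 fold change -1.06 ± 0.281, adjusted p = 0.0153, edgeR). At any fold 6 of the 24 were higher and 3 lower in KO after LPS, against 7.78% and 6.54% of all genes. The LPS response was larger in KO for 3 of the 24 and smaller for 3, against 7.32% and 9.5% of all genes. Adam17, the target of Timp3 and added here after its values were seen, was higher in KO after LPS (0.29 ± 0.0554, adjusted p = 0.00145, edgeR) at 797 ± 23.7 against 654 ± 50.5 CPM. The median of the list was 0.07 after LPS, beside -0.01 over all genes.

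Of 16 matrix genes that MMPs cut, 15 were tested. After LPS 6 were called higher in KO and none lower, with a median log2 fold change of 0.98, and in UT none was called, with a median of 0.05. Of all genes tested, 1.25% were called after LPS and 1.82% in UT, with medians of -0.01 and 0.0. At any fold 9 were higher and 1 lower in KO after LPS, against 7.78% and 6.54% of all genes, and 3 were higher and none lower in UT, against 14.1% and 9.69%. The 1 lower was Tnc, the matrix glycoprotein tenascin C, named after its values were seen, at -0.36 ± 0.0548 after LPS (adjusted p = 1.48e-04, edgeR) but 0.51 ± 0.106 in UT (adjusted p = 0.00114). The 6 genes, named after their values were seen, were Col1a1, Col1a2, Col3a1, Lama4, Hspg2 and Sparc, all under 4 CPM in every library. The list shares the 3 collagen genes Col1a1, Col1a2 and Col3a1 with the stromal markers. LPS called 5 of the 15 higher and 2 lower in WT, against 19.1% and 18.7% of all genes, and 7 higher and none lower in KO, against 17.7% and 19.3%.

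By Pearson correlation of log2 CPM over the 12 libraries, among 9079 protein-coding genes with a mean of at least 5 CPM, the genes most like Mmp13 were Car13 (r = 0.9999), Mlkl and Gbp2, and those most like Mmp14 were Slc2a1 (r = 0.9997), Rrbp1 and Acsl1. Timp1 was most like Clec2d (r = 0.9991), Prdx5 and Abracl, and Timp2 most like Lat2 (r = 0.9987), Gusb and Tprgl. Mmp12 was most like Rab5if (r = 0.9975), H3f3b and Creb3. For members with smaller or noisier contrasts the likeness was lower, with Lrpap1 (r = 0.9693), Peak1 and Tor4a for Mmp9, Pik3c3 (r = 0.979), Ranbp6 and Akap1 for Mmp19 and Pdk1 (r = 0.9708), Cdc42 and Slc35f6 for Timp3. The 12 points share treatment, genotype and library depth, so that these values describe the pattern over 4 groups.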

How the data were processed

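RNA was measured in 12 libraries of BMDMs, 3 for each combination of genotype (WT, HSS9 KO) and treatment (UT, LPS for 6 hr). The authors prepared stranded total RNA libraries, aligned reads to GRCm38 with HISAT2 2.1.0, used SAMtools 1.17 and FastQC 0.11.9, and deposited raw counts per gene from featureCounts 2.0.0, as their processing notes name these tools. The deposited counts carry no filter or normalization. Annotation release and multi-mapping rules are not given in the sources used here.

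Gene symbols, exon lengths and coordinates came from GENCODE M21 (GRCm38) by identifier, and 382 identifiers were not matched. All 12 libraries were fitted with edgeR 4.0.16 (limma 3.58.1, R 4.3.3) in a model of the 4 group means, after TMM scaling and filterByExpr (minimum count 10, minimum total 15). The common biological coefficient of variation was 0.0712. SE was taken as the log2 fold change over the root of the F statistic, and intervals are 95%. Levels per kb used summed exon length. Promoters came from the RefSeq table. Python 3.11.15, pandas 2.3.3 and matplotlib 3.10.9 made tables and figures.

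The members and all gene lists were chosen with earlier results of these data known. All members are named with each value. Of other MMP and TIMP genes, those past the filter are named. Partner genes are named if called between genotypes, together with the 4 largest LPS responses in WT called in both genotypes, and the 3 genes most like each member are listed. Adam17, S100a9, the matrix genes and single cell type markers were named after their values were seen.

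Batch numbers equal the replicate numbers of the labels, and whether they mark libraries handled together is not given. Deviations from group means of same-numbered libraries correlated at -0.0631 to 0.0373 over 18 pairs. Values within batches therefore compare libraries that share a number and are not shown to be pairs. Alternatives were RLE and upper-quartile scaling, DESeq2 1.42.0, other count filters, protein-coding genes only, the compared groups only, a replicate block, the small RNA share as covariate, no fold minimum, and leaving out each library. Library totals without scaling factors were added after seeing the data. Counts without molecular identifiers carry counting error and more.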

Additional observations from a re-analysis of the deposited data

Results flagged for a closer look

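For 4 members the LPS response differed between the genotypes in the test of the difference itself (edgeR interaction, Benjamini-Hochberg adjustment over 15523 genes). The LPS log2 fold change in KO minus that in WT was 0.85 for Mmp13 (adjusted p = 2.75e-05), 0.48 for Mmp14 (adjusted p = 0.0230), -1.24 for Timp1 (adjusted p = 2.63e-04) and 1.05 for Timp3 (adjusted p = 0.00731). Its direction was the same in all 3 batches for each of these genes, with ranges of 0.81 to 0.98 for Mmp13, 0.07 to 0.87 for Mmp14, -1.47 to -0.79 for Timp1 and 0.70 to 1.56 for Timp3. For Mmp13 and Timp1 the genotypes did not overlap in UT and overlapped after LPS, whereas for Timp3 the larger separation was after LPS. With the small RNA share as covariate the 4 values were 0.11, 0.11, -0.078 and 0.20, and their adjusted p-values were 0.827 or more. Within groups the share varied most in WT LPS (4.04 to 6.89%), and in UT it cannot be told apart from genotype. That fit therefore cannot decide whether the interactions hold.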

How the results depend on the processing

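Over 40 results for single members, 670 of 680 alternative values kept their sign and 628 kept both sign and side of the 0.05 threshold. Without a fold minimum the members called numbered 4 after LPS, 3 in UT, 8 for LPS in WT and in KO and 4 for the interaction. Of all 15523 genes, 2223 passed after LPS, 3700 in UT, 11386 for LPS in WT, 11295 in KO and 2611 for the interaction. With library totals as the scale 5 members were called for LPS in WT, as with TMM, but with Mmp19 (-1.09) in place of Mmp9 (0.59). Over all genes these calls numbered 7142, against 5870 with TMM. With the small RNA share as covariate 0 were called in UT and 0 for the interaction. Over all genes the calls with that covariate numbered 103 after LPS, 111 in UT and 42 for the interaction, against 194, 283 and 335 without it. In UT the share and the genotype cannot be told apart, so that fit cannot separate them. Leaving out single libraries gave 1 to 2 members called after LPS and 1 to 2 for the interaction. Over all genes the calls then ranged from 140 to 245 after LPS and from 197 to 519 for the interaction. The sign turned for results that had not passed the test, except Timp3 for LPS in WT with library totals as the scale (-0.099). The others were Mmp13 after LPS (-0.041) and the Timp2 interaction (0.11) with the covariate, and Timp1 after LPS with upper-quartile scaling (-0.011), a mean CPM of at least 1 (-0.001) or protein-coding genes only (-0.021), and, over the libraries left out, from -0.11 to 0.15. With library totals they were Mmp12 in UT (-0.018) and the interactions of Mmp12 (0.071) and Timp2 (0.07). The cause of these turns was not tested. With the replicate block, the members called numbered 2 after LPS, 1 in UT, 5 and 6 for LPS in WT and KO and 2 for the interaction. Over all genes the calls numbered 164, 246, 5827, 5721 and 270 in the same order. The block moved no adjusted p of a member across the threshold other than that of Mmp14 after LPS (0.0645). Depth limits Mmp9 and Timp3, which rested on as few as 27 and 41 counts per library.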
